A study of Mus musculus with 4 samples.

Results

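The inhibitory receptors of myeloid cells described here are the products of 8 genes, Pirb, Lilrb4a, Cd300a, Cd300lf, Sirpa, Siglece, Pilra and Cd33, which were chosen by symbol as receptors with inhibitory motifs. In the gene counts these symbols covered 9 of 53465 lines, because Lilrb4a named 2 Ensembl genes. The RNA came from MDSCs (myeloid-derived suppressor cells) from the spleens of tumor-bearing mice. The cells were enriched with magnetic beads through an antibody to Gr-1, which recognizes Ly-6G as well as Ly-6C. The hosts were male BALB/c mice, 6 weeks old when they were injected subcutaneously with cells of the 4T1 mammary carcinoma line. In the control group (2 libraries) the sorted cells stayed in medium for 6 h, and in the EGCG treatment group (2 libraries) the medium held 5 μg/mL EGCG, a polyphenol abundant in green tea. The tumor line, the strain and the sort were the same in both groups. The sample labels place the sacrifice on day 21, whereas the study's methods give a shorter interval for the sorted cells, and neither says whether replicate libraries stand for separate animals or for separate cultures. P values therefore measure the spread between these libraries, which may be technical.

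Inhibitory receptors hold back the activity of myeloid cells. When a ligand is bound, Src family kinases such as Lyn phosphorylate tyrosines in the receptor's cytoplasmic tail, within short immunoreceptor tyrosine-based inhibitory motifs (ITIMs), and the phosphatases SHP-1 (Ptpn6), SHP-2 (Ptpn11) and SHIP-1 (Inpp5d) dock there and undo the signals of activating receptors. Many of these genes have an activating relative in the same gene cluster, which has a short tail, carries no ITIM and signals through adaptors such as DAP12 (Tyrobp) or the Fc receptor gamma chain (Fcer1g). On MDSCs the best known of them are PIR-B, which binds MHC class I, and SIRPα, which binds the "don't eat me" protein CD47.

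None of these receptor transcripts passed the test for a change with EGCG. In edgeR (quasi-likelihood test, Benjamini-Hochberg adjustment over 14682 tested genes), 0 of the 9 lines had an adjusted p under 0.05, and the adjusted p ran from 0.188 to 0.980. Among all tested genes, 0.150% were called at that threshold (0.136% lower and 0.0136% higher with EGCG). Of the 9 lines, 6 had log2 fold changes below 0, beside 49.4% of all tested genes. At an unadjusted p under 0.05, 2 of the 9 lines were lower, Lilrb4a and Cd300lf, and 0 were higher, beside 7.02% lower and 5.22% higher among all tested genes, and DESeq2 called 0 of the lines at an adjusted p under 0.05. DESeq2 gave 1 of the 2 Lilrb4a lines (ENSMUSG00000062593) no adjusted p. The log2 fold changes ran from -0.31 to 0.08 with a median of -0.06, against a median of 0.0031 over all tested genes. Without EGCG replicate 2 the median of the lines was 0.01, and 4 of the 9 were below 0. All 9 lines passed the filter on low counts.

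To see which motifs the 8 receptors share, the codons of an ITIM were searched in the principal GENCODE M21 coding sequence of each gene, after the most hydrophobic stretch of 19 residues beyond the first 60, which stood in for the membrane span. The motif is isoleucine, valine, leucine or serine, then 1 residue of any kind, tyrosine, 2 residues of any kind, and leucine, valine or isoleucine. It was found in 7 of the 8 receptors, with 14 matches in all. Pirb and Sirpa had 3 matches each, Lilrb4a, Cd300a and Cd300lf had 2 each, and Siglece and Pilra had 1 each. Cd33 had 0 matches in its tail of 66 residues, which goes against the choice of this gene for an inhibitory motif as far as these letters and this transcript go. By the same search, 25.1% of 21429 coding genes had at least 1 match and 7.70% had at least 2. Because the receptors were chosen for such motifs, these shares are a description and test nothing. Of 7 activating or short-tailed relatives searched (Lilr4b, Pira2, Lilra6, Pilrb1, Pilrb2, Sirpb1a and Cd300lb), 0 had a match, and their tails were 7 to 43 residues long against 66 to 179 residues in the 8 receptors. These relatives were taken as activating or short-tailed, which largely fixes that count.

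The motif codons are printed below from the GENCODE M21 transcripts, which are built on GRCm38, to show how the members of the group resemble each other. They are read 5′ to 3′ on the gene's strand, with the codon of the central tyrosine in capitals. Both motifs are given for Lilrb4a and Cd300lf, the genes with the smallest p values, and 1 motif for each of the other receptors except Cd33.
Lilrb4a, first motif: attgtcTACgcccaggta
Lilrb4a, second motif: gtaaccTATgcccagttg
Cd300lf, first motif: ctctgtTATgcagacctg
Cd300lf, second motif: gtttcaTATgccgctctg
Pirb, second motif: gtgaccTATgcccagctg
Sirpa, second motif: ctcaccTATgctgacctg
Cd300a, first motif: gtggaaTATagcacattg
Siglece: atacatTATgcgaccctc
Pilra: atcgtgTATgcttccatc
All of them are coding exon sequence. The Lilrb4a motifs lie on the plus strand at chr10:51496021-51496038 (exon 8 of 9) and chr10:51496194-51496211 (exon 9). The Cd300lf motifs lie on the minus strand at chr11:115117648-115117665 (exon 6 of 7) and chr11:115117112-115117129 (exon 7). The Pirb motif is at chr7:3712786-3712803 on the minus strand (exon 15 of 15), with its tyrosine at residue 794. The Sirpa motif is at chr2:129630077-129630094 on the plus strand (exon 8 of 8), and that of Cd300a is at chr11:114899846-114899863 on the plus strand (exon 6 of 7). Siglece and Pilra carry theirs in exon 7 of 7 on the minus strand, at chr7:43651585-43651602 and chr5:137823571-137823588. These exons are in the reference genome, which is not of the BALB/c strain, and alleles of these mice were not read.

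**Figure D1:**
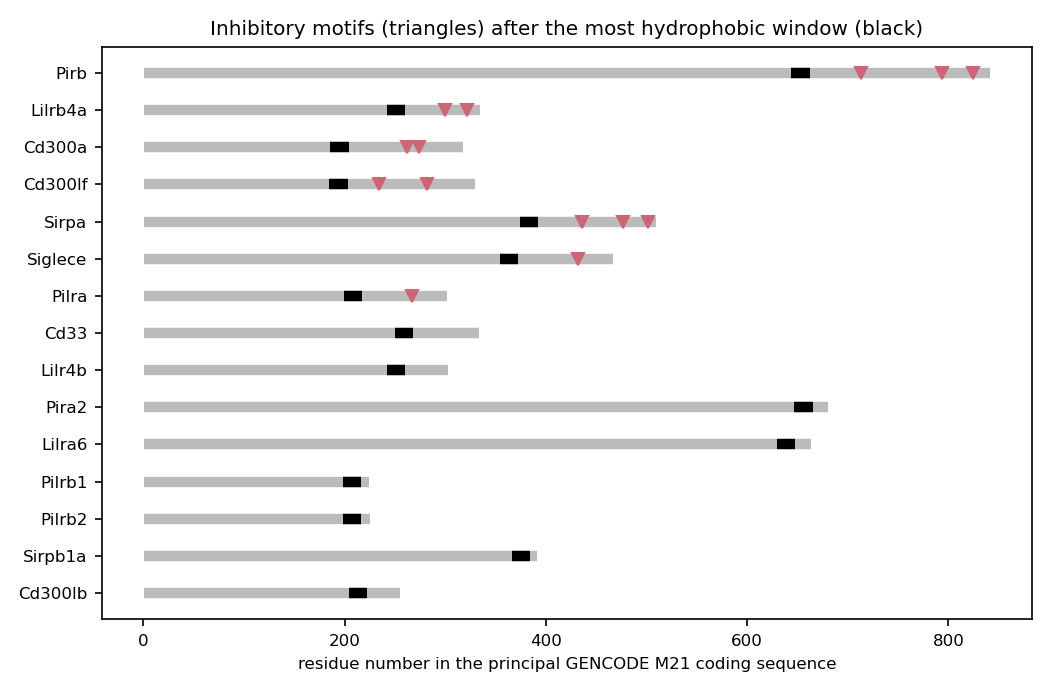
Position of inhibitory motifs (triangles, at the central tyrosine) along the coding sequence of each receptor, in residues. Grey bars span the protein, black bars mark the most hydrophobic window, and matches appear after it in 7 of the 8 receptors (Pirb down to Pilra) but in neither Cd33 nor the 7 relatives listed under it.

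Lilrb4a encodes gp49B, an ITIM receptor of the leukocyte immunoglobulin-like family found on mast cells, neutrophils and other myeloid cells, and it showed the largest difference of the group. Its main line, ENSMUSG00000112148, lies on chromosome 10 of GRCm38 from 51490956 to 51496611 on the plus strand. Expression was 755.8 and 797.9 CPM (counts relative to the TMM-scaled library total) in the control libraries, and 678.7 and 573.9 CPM in the EGCG libraries. The EGCG libraries were both lower than the control libraries, with EGCG replicate 2 the lowest. The means were 776.9 ± 29.8 CPM (SD, n = 2) and 626.3 ± 74.1 CPM (SD, n = 2). The log2 fold change was -0.31 (standard error 0.09, 95% interval -0.50 to -0.12), with an unadjusted p of 0.00332 and an edgeR adjusted p of 0.188. Without EGCG replicate 1 it was -0.43 and passed the threshold (edgeR adjusted p of 0.00627), and without EGCG replicate 2 it was -0.19 (adjusted p of 0.518). When TMM factors were left out, which moved the median of all tested genes to -0.03, it was -0.35 with an edgeR adjusted p of 0.0451. Over the 10 alternatives of filter, scaling, test and correction, the adjusted p from edgeR or DESeq2 ran from 0.0451 to 0.659.

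The second Lilrb4a line, ENSMUSG00000062593, has the name Gm49339 in GENCODE M21 and runs from 51480612 to 51496613, across both Lilr4b and Lilrb4a. Its counts were 28 and 28 with control medium, and 31 and 28 with EGCG. These few reads left a log2 fold change of 0.08 with a wide 95% interval, -0.60 to 0.76. Leaving out EGCG replicate 1 gave 0.02 and leaving out EGCG replicate 2 gave 0.14, and the length correction gave 0.02. In the annotation, 1968 of its 1990 exonic bases also belong to other genes, and 1846 of the 5227 exonic bases of Lilrb4a belong to this line. Both Lilrb4a motifs printed above lie in such shared bases, so that a read there belongs to 2 genes at once. The second line had 28 to 31 counts beside 10251 to 14259 for Lilrb4a, so that few reads on shared bases were counted for the second line. Whether such reads were counted for Lilrb4a or left out is not given in the sources used here. The Lilrb4a counts are uncertain to that extent. Its neighbor Lilr4b, which encodes gp49A, a relative with no ITIM, shares 39.1% of the 31-base words of the Lilrb4a transcripts. Lilr4b was at 1018 and 1120 CPM in the control libraries and at 950.6 and 865.2 CPM in the EGCG libraries. Here too both EGCG libraries were lower, and EGCG replicate 2 was the lowest. The log2 fold change of Lilr4b was -0.24 (standard error 0.08, edgeR adjusted p of 0.280), and reads of the pair could be split between them.

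Cd300lf and Cd300a are ITIM receptors of the CD300 family, which bind membrane lipids such as phosphatidylserine on dying cells. Cd300lf (ENSMUSG00000047798) lies on chromosome 11 from 115116214 to 115133992 on the minus strand, inside the span of Rab37 on the other strand, with which it shares 0 exonic bases. Cd300lf was at 1189 and 1162 CPM in the control libraries and at 1090 and 978.1 CPM in the EGCG libraries. Both EGCG libraries were lower, EGCG replicate 2 the more so. The difference did not pass the adjusted threshold, at a log2 fold change of -0.18 (standard error 0.08, 95% interval -0.36 to -0.01), an unadjusted p of 0.0388 and an edgeR adjusted p of 0.386. Without EGCG replicate 2 its log2 fold change was -0.11, and without EGCG replicate 1 it was -0.26. Cd300a (ENSMUSG00000034652, chromosome 11 from 114890041 to 114904654, plus strand) went the other way. Its expression was 176.6 and 185.4 CPM in the control libraries and 189.7 and 189.0 CPM in the EGCG libraries. The groups did not overlap, but the gap between them was smaller than that between the control libraries. Cd300a had a log2 fold change of 0.06 (standard error 0.07, 95% interval -0.09 to 0.22, edgeR adjusted p of 0.774), with 0.04 when control replicate 1 was left out, 0.10 when control replicate 2 was, and 0.03 with library size only. Most of the transcript sequence of these 2 genes is their own, with 4.33% (Cd300lf) and 7.51% (Cd300a) of their 31-base words found in other genes.

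Sirpa (ENSMUSG00000037902), the receptor for CD47, had the highest CPM of the group and lies on chromosome 2 from 129592835 to 129632228 on the plus strand. Sirpa was at 1287 and 1262 CPM in the control libraries and at 1184 and 1265 CPM in the EGCG libraries. EGCG replicate 1 was the lowest, and EGCG replicate 2 lay between the control libraries. For Sirpa the log2 fold change was -0.06 (standard error 0.08, 95% interval -0.23 to 0.11, edgeR adjusted p of 0.824). Without EGCG replicate 1 it was -0.0084, without EGCG replicate 2 it was -0.11, and with library size only it was -0.09. Its ligand gene Cd47, named for its role, was at 320.4 and 349.8 CPM in the control libraries and 336.1 and 356.4 CPM in the EGCG libraries, at a log2 fold change of 0.05 (standard error 0.08) that ran from -0.01 without control replicate 1 to 0.11 without control replicate 2. Neither end of the pair was called, and the libraries of both groups overlapped for each.

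Pirb (ENSMUSG00000058818) encodes PIR-B, an MHC class I receptor that restrains myeloid cells, and lies on chromosome 7 from 3711409 to 3720391 on the minus strand. Pirb was at 280.5 and 279.2 CPM in the control libraries and at 287.2 and 263.4 CPM in the EGCG libraries, 1 above and 1 below the controls. Its log2 fold change was -0.02 (standard error 0.08, 95% interval -0.19 to 0.14, edgeR adjusted p of 0.935), and it was 0.04 without EGCG replicate 2, -0.08 without EGCG replicate 1 and -0.06 with library size only. Of the 31-base words of Pirb, 43.8% also occur in transcripts of other genes, among them Gm14548 (23.7%) and the activating relatives Lilra6 (23.1%) and Pira2 (23.1%), so that its counts are uncertain in their split with the Pira genes.

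Pilra (ENSMUSG00000046245), an ITIM receptor for sialylated glycoproteins, lies on chromosome 5 from 137821952 to 137836281 on the minus strand. Its expression was 254.0 and 276.9 CPM in the control libraries and 281.3 and 252.4 CPM in the EGCG libraries. The EGCG libraries were the highest and the lowest of the 4. Its log2 fold change was 0.0077 (standard error 0.08, 95% interval -0.17 to 0.18, edgeR adjusted p of 0.980), and its sign changed with the scaling and with the library left out. The end of the gene overlaps Zcwpw1 on the other strand over 468 exonic bases. Zcwpw1 itself had 31 to 42 counts per library, against 4509 to 5100 for Pilra.

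Siglece and Cd33 are sialic acid-binding lectins of the Siglec family and lie near each other on chromosome 7, both on the minus strand. Siglece (ENSMUSG00000030474, from 43651070 to 43660161), the ITIM Siglec of mouse neutrophils, was at 345.2 and 368.2 CPM in the control libraries and at 325.2 and 345.7 CPM in the EGCG libraries. EGCG replicate 1 was the lowest, while EGCG replicate 2 was just above control replicate 1. Its log2 fold change was -0.09 (standard error 0.08, 95% interval -0.25 to 0.07, edgeR adjusted p of 0.688). It was -0.15 with the length correction and -0.04 without control replicate 2 or without EGCG replicate 1. Cd33 (ENSMUSG00000004609, from 43524216 to 43544428) was at 1039 and 976.6 CPM in the control libraries and at 1015 and 802.7 CPM in the EGCG libraries. EGCG replicate 1 lay between the control libraries, and EGCG replicate 2 stood below the other 3. For Cd33 the log2 fold change was -0.15 (standard error 0.10, 95% interval -0.36 to 0.06, edgeR adjusted p of 0.593). It was 0.01 without EGCG replicate 2 and -0.33 without EGCG replicate 1 (edgeR adjusted p of 0.104), so that 1 library decided its size and sign, and -0.09 with the length correction.

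**Figure D2:**
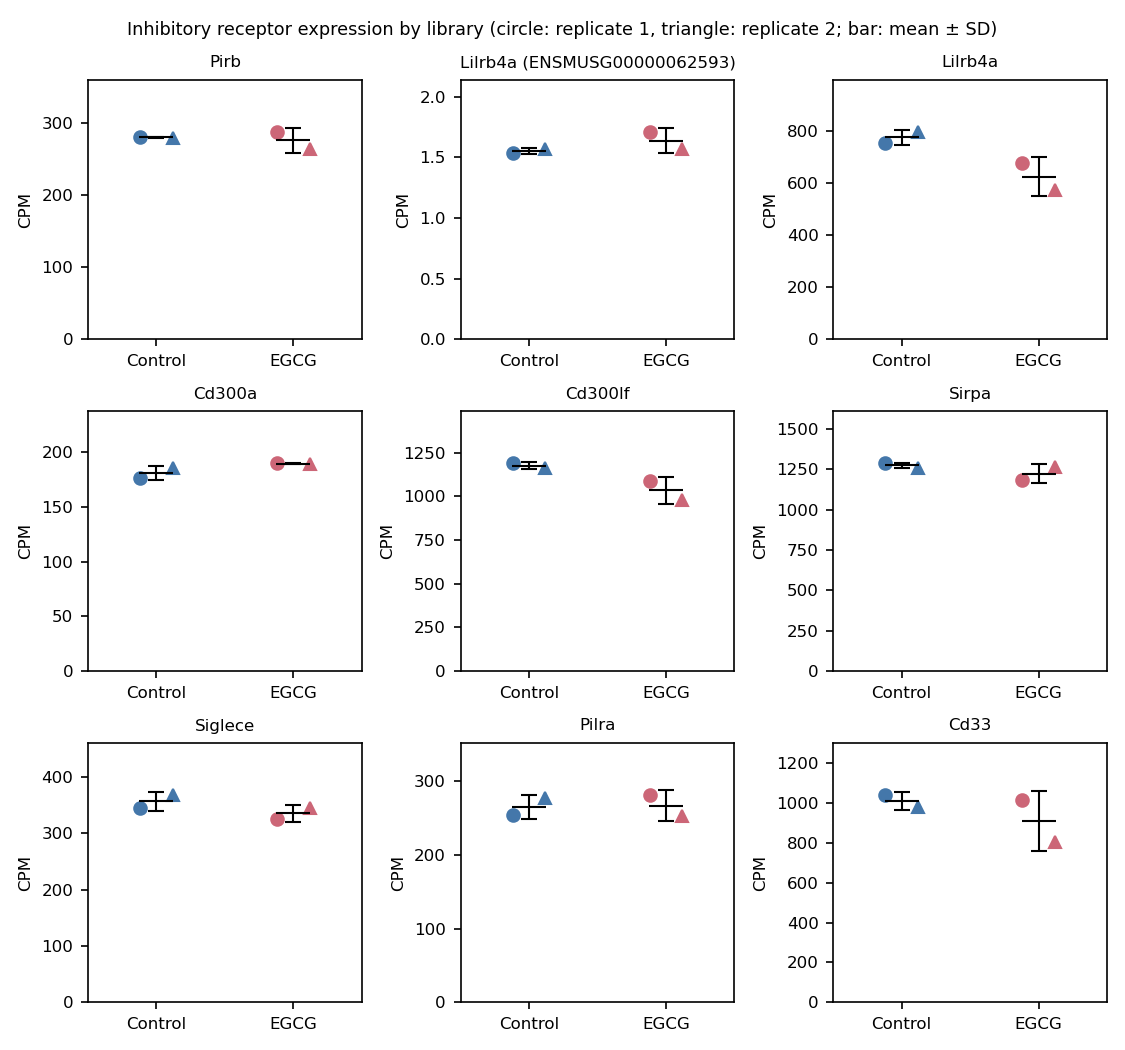
CPM of each receptor line in the control (blue) and EGCG (red) libraries, with circles for replicate 1, triangles for replicate 2, and the mean ± SD of 2 libraries in black. Both EGCG libraries lie below both control libraries for Lilrb4a (678.7 and 573.9 CPM against 755.8 and 797.9 CPM) and Cd300lf, while Pirb, Sirpa, Siglece, Pilra and Cd33 overlap.

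Between the groups, the libraries did not overlap for 2 lower lines (Lilrb4a and Cd300lf) and for 2 higher lines (Cd300a and the second Lilrb4a line) of the 9, beside 21.2% lower and 21.5% higher among all tested genes. These shares are near the background. For the second Lilrb4a line, control replicate 2 was at 1.567 CPM and EGCG replicate 2 at 1.568 CPM, on 28 counts each. Control replicate 1 also had 28 counts, so that the place of this line as higher rests on the scaling. EGCG replicate 2 was the lowest of the 4 libraries for 5 of the 9 lines (Pirb, Lilrb4a, Cd300lf, Pilra and Cd33), beside 24.8% of all tested genes. The 9 lines together took 0.548% and 0.528% of all counts with control medium, and 0.498% and 0.461% with EGCG. Totals ran from 17767318 to 18390385 counts per library. Against the other tested genes these receptors were strongly expressed. Apart from the second Lilrb4a line, their mean CPM lay between percentile 92.4 (Cd300a) and percentile 99.5 (Sirpa) of the tested genes, which leaves little counting error.

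**Figure D3:**
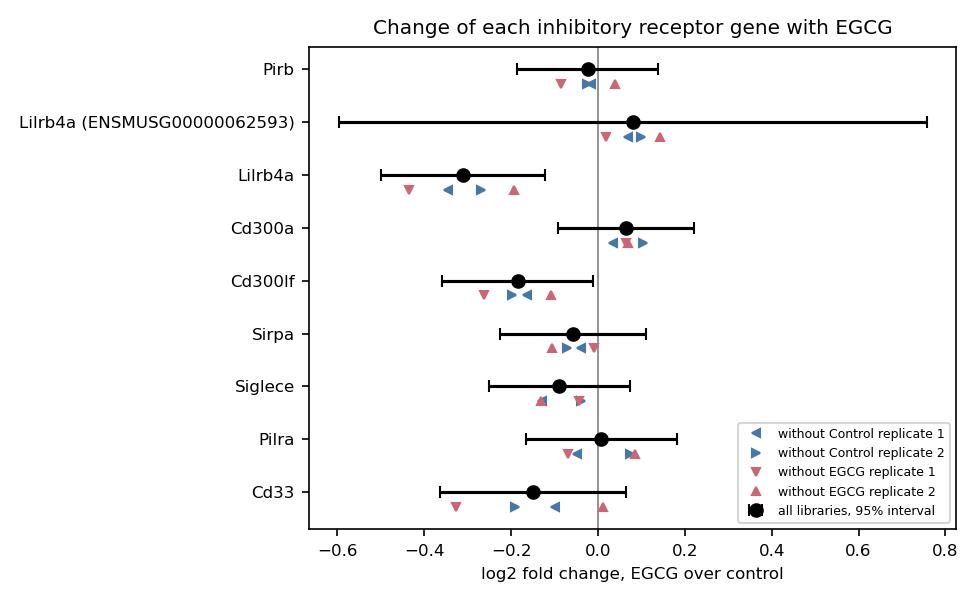
Log2 fold change (EGCG over control) of each receptor line with its 95% interval from edgeR (black), and the value with each library left out (blue for a control library, red for an EGCG library). Lilrb4a (-0.31) and Cd300lf (-0.18) have intervals below 0, and leaving out EGCG replicate 2 moves Pirb and Cd33 across 0.

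Per kilobase of exon, the order of the receptors in the control group was Sirpa (259.5 CPM per kb), Cd300lf (228.2), Siglece (192.9), Lilrb4a (148.6), Cd33 (129.7), Pilra (85.9), Pirb (62.6) and Cd300a (38.2). The same order was seen in the EGCG treatment group, from 249.3 CPM per kb for Sirpa to 40.0 for Cd300a. Neighbors in this order did not overlap between libraries of a group, except Lilrb4a and Cd33 with EGCG (109.8 to 129.8 and 103.3 to 130.6 CPM per kb). The place of Lilrb4a is uncertain in both groups, since its length of 5227 bases includes 1874 shared with overlapping genes. If reads on those bases were not counted, its values over its 3353 own bases would be higher. Its place, and the same order in both groups, could then change.

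Activating relatives of the 8 receptors were listed by family. Of 27 symbols written, 19 were in the counts, and 15 had enough counts to be tested. Those not found were all Pira genes, relatives of Pirb, of which only Pira2 was found by symbol. By edgeR, 0 of the 15 were called in either direction at an adjusted p under 0.05 and 0 at an unadjusted p under 0.05. The shares over all tested genes were 0.150% at the adjusted threshold, and 7.02% lower and 5.22% higher at the unadjusted one. Their median log2 fold change was 0.03, and 10 of 15 had values above 0, beside 50.6% of all tested genes. The smallest p values belonged to Sirpb1b (log2 fold change of 0.25, standard error 0.16), Cd300ld5 (-0.75, standard error 0.51, on 6 to 18 counts) and Lilra6 (-0.08, standard error 0.07). With each library left out in turn, these ran from 0.12 to 0.37, from -1.26 to -0.37 and from -0.12 to -0.04. Among the adaptors and their kinase Syk, 0 of 4 were called. Tyrobp, which encodes the adaptor DAP12, was at 1178 and 1429 CPM in the control libraries and at 1564 and 1408 CPM in the EGCG libraries. The groups overlapped for Tyrobp, at a log2 fold change of 0.19 (standard error 0.10, edgeR adjusted p of 0.463). That value was 0.06 without control replicate 1, 0.11 without EGCG replicate 1 and 0.34 without control replicate 2 (edgeR adjusted p of 0.0502). Fcer1g had a log2 fold change of 0.06, which was -0.10 without EGCG replicate 1 and 0.20 without EGCG replicate 2, and Syk had -0.07 (-0.11 to -0.02 with a library left out).

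Of the 18 kinases, phosphatases and other signaling proteins on the list for the motifs, 0 were called by edgeR in either direction, 2 were lower at an unadjusted p under 0.05 (beside 7.02% of all tested genes), and the median log2 fold change was -0.01. These were Cbl, a ubiquitin ligase that turns down tyrosine kinase signaling, and the kinase gene Src. Cbl was at 576.7 and 583.6 CPM in the control libraries and at 485.5 and 459.3 CPM in the EGCG libraries. Both EGCG libraries were lower, and the log2 fold change was -0.30 (standard error 0.07, edgeR adjusted p of 0.133), and DESeq2 called Cbl (adjusted p of 0.0381). Src had a log2 fold change of -0.50 (standard error 0.18) on 110 to 185 counts, and Socs3, a feedback inhibitor, had -0.16. With each library left out in turn, Src ran from -0.67 (without control replicate 2) to -0.30 (without control replicate 1), and Socs3 from -0.28 (without EGCG replicate 2) to -0.05 (without EGCG replicate 1). The phosphatases that dock at ITIMs, named for their role, had log2 fold changes of 0.07 (Ptpn6), -0.12 (Ptpn11) and -0.09 (Inpp5d), each with a standard error of 0.07 or 0.08, and the kinase gene Lyn had 0.05. With a library left out, Ptpn6 ran from 0.04 to 0.11, Inpp5d from -0.12 to -0.06, and Lyn from -0.0018 to 0.09.

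Among the 12 tested genes of known ligands, 0 were called by edgeR in either direction and 2 were lower at an unadjusted p under 0.05 (beside 7.02% of all tested genes), with a median log2 fold change of -0.01. Fn1, which encodes the matrix protein fibronectin and is also on the list of monocyte markers, was at 490.3 and 303.6 CPM in the control libraries and at 217.8 and 263.0 CPM in the EGCG libraries. The EGCG libraries were lower than both controls, which themselves lay far apart. Its log2 fold change was -0.72 (standard error 0.16, edgeR adjusted p of 0.0870). It was -0.33 without control replicate 1, whereas without any 1 of the other 3 libraries it was between -1.03 and -0.59 and passed the threshold. Itgb3 and Itgav, which encode the integrin chains that bind gp49B, had log2 fold changes of -0.19 (standard error 0.07) and -0.21 (standard error 0.10). Leaving out EGCG replicate 1 gave -0.06 for Itgav, and leaving out EGCG replicate 2 gave -0.37. The MHC class I light chain gene B2m had -0.02, and from -0.15 to 0.12 with a library left out.

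Other inhibitory receptors of leukocytes, a list that also held Lilr4b, had 21 tested members, with 0 calls in either direction by edgeR at an adjusted p under 0.05, and at an unadjusted p under 0.05 there were 6 lower and 1 higher, where 7.02% of all tested genes were lower and 5.22% higher. Their median log2 fold change was -0.04. Lilr4b, which had 0 motif matches, was among the 6 lower genes (unadjusted edgeR p of 0.0135), and its groups did not overlap. The smallest p values belonged to Havcr2, which encodes TIM-3, Fcgr2b, the inhibitory Fc receptor, and Pecam1. Havcr2 was at 70.9 and 72.5 CPM in the control libraries and at 53.3 and 59.1 CPM in the EGCG libraries, both lower than the controls. It had a log2 fold change of -0.35 (standard error 0.08, edgeR adjusted p of 0.120), and without EGCG replicate 2 it was -0.43 and passed the threshold (edgeR adjusted p of 0.0270). It was -0.28 without EGCG replicate 1 (edgeR adjusted p of 0.340), and with either control left out the edgeR adjusted p was 0.146 or 0.082. Fcgr2b had a log2 fold change of -0.26 (standard error 0.08, edgeR adjusted p of 0.221) and Pecam1 of -0.26 (standard error 0.08, edgeR adjusted p of 0.224). Over the whole list, the groups did not overlap for 8 lower and 3 higher genes of 21, beside 21.2% lower and 21.5% higher among all tested genes, and Havcr2, Fcgr2b and Pecam1, picked by smallest p, were among the lower ones.

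**Figure D4:**
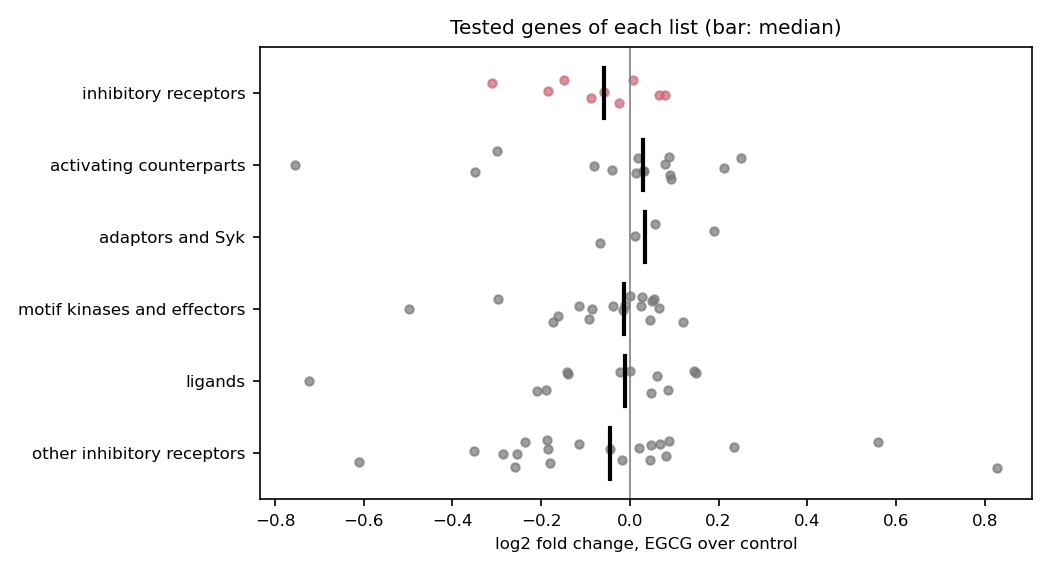
Log2 fold change (EGCG over control) of each tested gene in the receptor group (red) and in 5 lists of related genes (grey), with the median of each list as a black bar. The receptor group spans -0.31 to 0.08 with a median of -0.06, and the medians of the other lists lie between -0.04 and 0.03.

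The sorted cells had the markers of neutrophils, with a summed level over 13 marker genes of 62473 and 73966 CPM in the control libraries and 82916 and 73710 CPM in the EGCG libraries. The groups overlapped, 9 of the 13 genes had values above 0 with 0 called, and their median log2 fold change was 0.09. Since these are bulk samples, fewer cells of a type and less RNA per cell cannot be told apart. Splenic macrophages and eosinophils also carry several of these receptors, and the summed levels of their markers were lower with EGCG, with 0 of those genes called. The magnetic sort keeps cells that carry Ly-6G or Ly-6C, and would remove cells with neither. The 12 macrophage markers, all with values below 0, summed to 777.6 to 802.2 CPM in the control libraries and 605.0 to 707.1 CPM in the EGCG libraries, and their median log2 fold change was -0.31. For the 8 eosinophil markers the sums were 1189 to 1392 CPM and 980.6 to 1179 CPM. The gap between the groups was smaller than that between the libraries of either group. All 8 eosinophil markers had values below 0, with a median log2 fold change of -0.23. Of the 10 monocyte markers, 8 had values below 0. Monocyte markers summed to 1396 to 1618 CPM and 1262 to 1314 CPM, and without Fn1, which carried most of that difference, to 1093 to 1128 CPM and 1044 to 1051 CPM. B cell markers were at 597.4 to 629.2 CPM in the control libraries and 634.8 to 703.6 CPM in the EGCG libraries, with 7 of 9 genes above 0 and 0 called. T and NK cell markers summed to 112.8 to 122.9 CPM with control medium and 127.3 to 128.9 CPM with EGCG. Of their 9 tested genes, 6 had values above 0 and 0 were called. In the other marker lists the groups overlapped, with 0 genes called. Dendritic cell markers summed to 174.5 to 183.1 CPM with control medium and 164.4 to 189.2 CPM with EGCG. Basophil and mast cell markers summed to 314.9 to 340.9 CPM and 322.1 to 329.8 CPM. Erythroid and platelet markers summed to 194.6 to 238.0 CPM and 219.4 to 243.3 CPM. The part of these cells in the values of Lilrb4a and Cd300lf was not tested.

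The genes whose expression over the 4 libraries was most like that of Lilrb4a, by the Euclidean distance of centered log2 CPM among 9625 genes with a mean of at least 100 counts, were 2610005L07Rik (0.05), Grap2 (0.05) and Hgf (0.06), against a median distance of 0.41. A close match over 4 libraries is a description only.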

How the data were processed

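MDSCs sorted from spleens were sequenced as 2 control and 2 EGCG libraries. Per the submitters' processing notes and the study's methods, the authors aligned reads with STAR 2.6.0c to GRCm38 and counted them with featureCounts 1.6.2 on Ensembl genes without regard to strand. The deposited values are raw counts, whole numbers of 0 or more, without normalization, and 0 columns belonged to other samples. Totals ran from 17767318 to 18390385 counts.

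Genes were filtered with edgeR's filterByExpr (minimum count of 10) and scaled by TMM. The EGCG and control groups were then tested in edgeR 4.0.16 (legacy quasi-likelihood test, without a block) over 14682 genes, with Benjamini-Hochberg adjustment and a threshold of 0.05. The standard error is the log2 fold change divided by the square root of F. With 2 libraries against 2, an exact permutation test cannot go below a p of 0.333. The length correction used loess with a span of 0.4. Replicates differed by more than sampling noise, with a mean chi-square per gene of 6.85 between the control libraries and 6.64 between the EGCG libraries.

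The members and lists were chosen with earlier results of these data known. All members are named, with up to 3 genes of each related list by smallest p and the genes nearest to the member with the smallest p. Genes described as named for their role, the short-tailed relatives searched for motifs, Lilr4b, Zcwpw1, Rab37 and B2m were added after the values were seen. For positions, exon lengths and transcripts, GENCODE M21 (GRCm38) was used, where 53360 of 53465 identifiers were found. Alternatives were other filters, scalings and fits, DESeq2 1.42.0, a length correction, a replicate block and leaving out each library. Other tools were R 4.3.3, Python 3.11.15, pandas 2.3.3, NumPy 2.4.6, Biopython 1.88 and matplotlib 3.10.9.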

Additional observations from a re-analysis of the deposited data

How the results depend on the processing

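Of 126 values of receptor fold changes under the 10 processing alternatives and with each of 4 libraries left out, 118 kept their direction and their side of the threshold, 6 changed sign and 2 passed the threshold. Lilrb4a was -0.35 with library size only, where 1 receptor line was called lower, and ran from -0.43 to -0.19 with a library left out (0 or 1 lines called). DESeq2 gave the second Lilrb4a line no adjusted p, so that this value, counted among the 118, kept only its direction. Pilra was -0.027 with library size only and -0.022 with the length correction, and ran from -0.070 to 0.085 with a library left out. With a library left out, Pirb ran from -0.085 to 0.039, Cd33 from -0.33 to 0.011, and the median of the 9 lines from -0.070 to 0.011, a change of sign without EGCG replicate 2. Log2 fold changes fell with exonic length across 14666 genes (Spearman correlation of -0.29, where genes are not independent replicates), and the length correction moved this to -0.03.

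The numbers of genes called lower and higher over all tested genes, 20 and 2, were 0 and 0 without a filter, 9 lower with upper-quartile scaling, 135 and 16 with library size only, 50 and 14 with DESeq2, 49 and 14 with edgeR's robust fit, and 5 lower with the length correction. The higher genes numbered 1 with the CPM filter and 6 with edgeR's newer form. With a library left out, 72 to 235 genes were lower and 5 to 119 higher. The cause of these shifts was not tested, and a lone library is then assumed to vary like the other group. Among the related lists, 1 kinase or effector gene (Cbl) was called lower with library size only and with DESeq2, 1 ligand (Fn1) and 1 other inhibitory receptor (Havcr2) with library size only, and 0 or 1 ligands (Fn1) and 0 or 1 other inhibitory receptors (Havcr2) lower, and 0 or 1 of the latter higher (Clec4a2), with a library left out. Same-numbered libraries did not deviate together (correlation of 0.03 across 14682 genes), and the replicate block, with 24 genes lower and 6 higher, left 0 receptor lines called. The second Lilrb4a line had 28 to 31 counts per library and only 22 of its 1990 exonic bases to itself. Few shared reads were thus counted for it, and whether they were counted for the main Lilrb4a line is not given in the sources used here.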
